A study of Mus musculus with 6 samples.

Results

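H3K56ac, the acetylated form of a lysine in the core of histone H3, was mapped by ChIP-seq in mouse embryonic stem cells (mESCs) of the V6.5 line, which were kept on feeder cells in medium with serum and LIF. Cells were infected with lentivirus for a scrambled control shRNA (Scramble) or for an shRNA against *Sirt6* (Sirt6KD), whose product removes this acetyl group. There were 6 libraries, namely 2 H3K56ac and 1 input library of each group. The values analysed here were the positions of 1 merged set of 11106 peaks on mm10, with no value for a library or a group, so Scramble and Sirt6KD could not be compared and the set had no replicates.

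The peaks described here are the distal peaks in first introns. They were chosen by position and width: 321 to 2999 bp wide, with the midpoint farther than 3 kb from every protein-coding transcription start site (TSS), in no exon, and inside intron 1 of the longest protein-coding transcript of a gene (GENCODE M21). There were 373 such peaks, 3.36% of the set and 40.4% of the 923 distal intronic peaks of these widths, and they lay in first introns of 293 host genes. Position and width are therefore a description and not a finding. Later-intron distal peaks (514), intergenic distal peaks (1482) and promoter peaks with the midpoint within 1 kb of a TSS (6167), all of the same widths, served for comparison. Ranges in parentheses are 95% intervals that cover counting error among peaks or genes. They treat peaks as independent, which near peaks are not, and a difference is called where its interval does not hold 0.

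Enhancers are stretches of DNA bound by transcription factors that act on promoters at a distance, and the nucleosomes beside active ones carry acetylated histones. First introns lie next to the promoter in the gene and are known to hold many enhancers and alternative start sites. In mESCs, enhancers of pluripotency genes are bound by POU5F1 (OCT4) together with SOX2, and by factors such as ESRRB and KLF4. AP-1, a dimer of Fos and Jun proteins, binds enhancers in many cell types.

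Sequences of first-intron peaks are shown for the strings of such factors. All are taken from the plus strand of the reference (GRCm38, the assembly of mm10), with 60 bases on each side of the string that is written in capitals, and none of these stretches overlapped an exon of a protein-coding gene. The core of the joint OCT4-SOX2 site, GCATNACAA, was found in the central 400 bp of 3 members, and all 3 are given because this site is the best known of mESC enhancers. The string was no more frequent in members (0.804%) than in windows of first-intron sequence outside peaks (1.08%). They lay in intron 1 of *Grik3*, a kainate receptor subunit (chr4:125609333-125609461), of *Abi1*, a subunit of the WAVE actin regulator (chr2:23003103-23003231), and of *Cdk19*, a kinase of the Mediator complex (chr10:40354243-40354371).
Grik3: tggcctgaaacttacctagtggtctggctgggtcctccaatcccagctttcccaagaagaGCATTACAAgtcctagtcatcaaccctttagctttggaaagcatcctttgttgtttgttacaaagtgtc
Abi1: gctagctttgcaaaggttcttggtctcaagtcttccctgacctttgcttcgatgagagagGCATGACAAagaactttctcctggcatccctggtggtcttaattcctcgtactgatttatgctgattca
Cdk19: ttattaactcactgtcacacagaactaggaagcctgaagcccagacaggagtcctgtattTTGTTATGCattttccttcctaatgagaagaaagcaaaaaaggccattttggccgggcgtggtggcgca

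The AP-1 string TGACTCA, or TGAGTCA on the other strand, was found in 36 members. The 3 widest with a stretch clear of exons are shown, as this string was more common in first-intron peaks than in promoter peaks or in first-intron sequence outside peaks. It was not particular to first introns: 9.65% of members, 8.17% of later-intron and 9.11% of intergenic peaks held it. Members minus intergenic peaks gave 0.542 percentage points (-2.50 to 4.22). They lay in *Pcsk6*, a proprotein convertase (chr7:65873445-65873571), *Pkd2*, which encodes the ion channel polycystin 2 (chr5:104466482-104466608), and *Mras*, a Ras family GTPase (chr9:99416879-99417005).
Pcsk6: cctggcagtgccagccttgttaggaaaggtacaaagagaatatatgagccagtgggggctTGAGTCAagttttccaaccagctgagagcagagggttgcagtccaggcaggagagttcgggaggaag
Pkd2: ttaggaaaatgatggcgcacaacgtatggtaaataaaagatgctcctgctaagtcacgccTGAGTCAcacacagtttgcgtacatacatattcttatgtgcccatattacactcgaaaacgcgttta
Mras: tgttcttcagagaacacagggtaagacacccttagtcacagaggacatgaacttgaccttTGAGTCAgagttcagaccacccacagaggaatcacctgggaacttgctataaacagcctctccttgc

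The member in *Lifr*, the receptor of the LIF that the medium supplied, held the octamer string of POU factors (ATTTGCAT) at 2 places, with starts at positions 23 and 61 of the stretch chr15:7115840-7115967. The first copy reads on the plus strand and the other on the minus strand.
Lifr: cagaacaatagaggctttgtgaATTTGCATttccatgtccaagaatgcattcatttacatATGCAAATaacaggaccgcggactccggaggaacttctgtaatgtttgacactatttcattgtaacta

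The median width of the 373 peaks was 731 bp, with quartiles of 551 and 1024 bp. The 5 widest lay in *Klf9*, a zinc finger factor (chr19:23150989-23153971, 2983 bp), in *Grik3* (chr4:125607745-125610691, 2947 bp), in *Fbxo36*, an F-box protein (chr1:84859440-84862370, 2931 bp), in *Fam160b1* (chr19:57364772-57367632, 2861 bp) and in *Cdyl2*, a chromodomain protein (chr8:116672449-116675286, 2838 bp). The *Grik3* peak is thus the second widest and also holds an OCT4-SOX2 string. At the limits of the rule, the narrowest member was a peak of 330 bp in *Fabp12*, and the next narrower candidate, of 314 bp in *March1*, was left out. A candidate of 3014 bp in *Gm28051* was too wide. The member nearest to a TSS lay 3063 bp from that of *Gm14412*, and a peak in *Pxn* at 2965 bp was too near. Without the limits on width there were 478 peaks of this kind, of which 80 were narrower and 25 wider.

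Members lay at all depths of the first intron. The distance from the 5′ end of the host transcript to the midpoint had a median of 17700 bp and quartiles of 7650 and 40989 bp. It was under 10 kb for 123 peaks (33.0%), 10 to 50 kb for 172 (46.1%), 50 to 100 kb for 41 and over 100 kb for 37. The peak in *Gm14412* was also the one nearest to the 5′ end of its host. The farthest, at 3938989 bp, lay in *Gm20388*, a gene model whose intron 1 of 4.38 Mb on chromosome 8 holds the starts of 73 other protein-coding genes. For 12 of the 373 peaks *Gm20388* was the sole host, and the coding starts nearest to them belonged to such genes as *Gse1*, *Irf8*, *Klhdc4* and *Def8*. Leaving out *Gm20388* gave 361 peaks with a median distance of 16838 bp.

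The nearest protein-coding TSS belonged to the host gene for 343 members (92.0%). Another annotated TSS of the host lay downstream of 269 members (72.1%), whether or not it was the nearest. The start of the longest transcript was exactly the nearest TSS for 74. Starts close together counted as different ones here, as for a peak in *Sh3bp4* with 21577 bp to the 5′ end and 21539 bp to the nearest TSS. These counts therefore do not show how many members were nearest to a separate promoter. The nearest host TSS was upstream of 275 members and downstream of 98. In 349 cases (93.6%) the peak lay in intron 1 of every coding host transcript that had an intron there. No member was within 1 kb of the start of a curated RefSeq coding transcript, for which the rule on GENCODE starts left little room. Within 1 kb of the start of a predicted one were 14 (3.75%). A lncRNA start lay within 1 kb of 13 members (3.49%, 2.05 to 5.87), against 2.33% of later-intron peaks (difference 1.15 percentage points, -1.08 to 3.74) and 13.4% of intergenic peaks. The share was 9.88 percentage points lower than in intergenic peaks, and this interval did not hold 0.

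Related to the sequence that could hold a peak, first introns were denser in distal peaks than later ones. The 194.5 Mb of first-intron sequence farther than 3 kb from every TSS and outside exons held 1.92 peaks per Mb (1.73 to 2.12), and the 579.0 Mb of later introns held 0.888 (0.813 to 0.968). Density fell with intron number, to 1.26 in intron 2, 0.967 in intron 3 and 0.740 in introns 4 and later. It also fell with distance from a TSS in both classes. At 3 to 10 kb it was 2.93 (2.52 to 3.39) in first and 1.63 (1.42 to 1.86) in later introns, and at 10 to 50 kb 1.91 (1.63 to 2.22) and 0.943 (0.825 to 1.07). Beyond 50 kb, 25 first-intron peaks gave 0.554 (0.358 to 0.817) and 66 later-intron peaks 0.329 (0.255 to 0.419), and these intervals overlapped. Along the intron there was no steady course: 5 successive parts of equal length held 1.59, 1.93, 1.63, 2.10 and 2.24 peaks per Mb, with overlapping intervals. First introns under 20 kb and of 20 to 50 kb had 2.97 and 3.13 peaks per Mb, and those over 100 kb had 0.909 (0.709 to 1.15). Since position chose the peaks, these densities are a description.

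**Figure D1:**
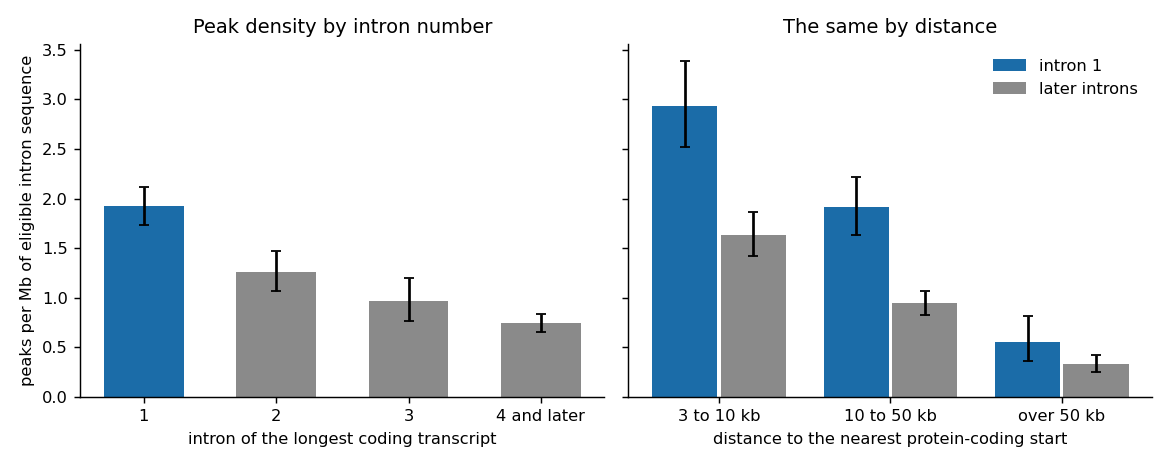
Peaks of 321 to 2999 bp per Mb of intron sequence farther than 3 kb from every TSS (vertical axis), by number of the intron in the longest coding transcript (left) and by distance to the nearest protein-coding TSS (right). Bars are densities and error bars exact Poisson 95% intervals. Intron 1 stood at 1.92 and introns 4 and later at 0.740, and intron 1 was above the later introns in each distance class, with overlapping intervals beyond 50 kb.

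Most first introns with a peak held 1, but a few held a series. Of the 288 introns, when each peak is given to its host with the shortest intron, 237 held 1 peak, 35 held 2 and 16 held 3 or more, and 136 members shared an intron with another member. *Pitpnc1*, a phosphatidylinositol transfer protein, had 6, from 21829 to 118822 bp behind the 5′ end. *Rbpj*, the DNA-binding effector of Notch signalling, had 4, at 3278, 59778, 76807 and 85562 bp, of which the third was 2657 bp wide. *Trim71*, an RNA-binding protein of stem cells, also had 4, of which 3 lay within 8829 bp of the 5′ end and 1 at 30536 bp. *Btbd11*, *Grik3*, *Ccnd3* (cyclin D3) and *Rbpms* (an RNA-binding protein) had 4 as well. The 4 peaks of *Btbd11* all lay deep in an intron of 157963 bp, at 121428 bp or more. Those with 3 were *Sh3bp4*, *Tns3*, *Gcnt2*, *Ezr*, *Prrc2b*, *Bnc2*, *Klf13* and *Trak1*. In *Bnc2*, a zinc finger protein, the 3 peaks lay between 5192 and 11758 bp in an intron of 119070 bp, and in *Ezr*, which encodes the membrane-to-actin linker ezrin, 2 of the 3 were 1472 bp apart. The remaining intron with 3 or more was that of *Gm20388*, with 12. Neighbouring members of an intron were a median of 9553 bp apart (74 spacings without *Gm20388*, from 1472 to 437865 bp).

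**Figure D2:**
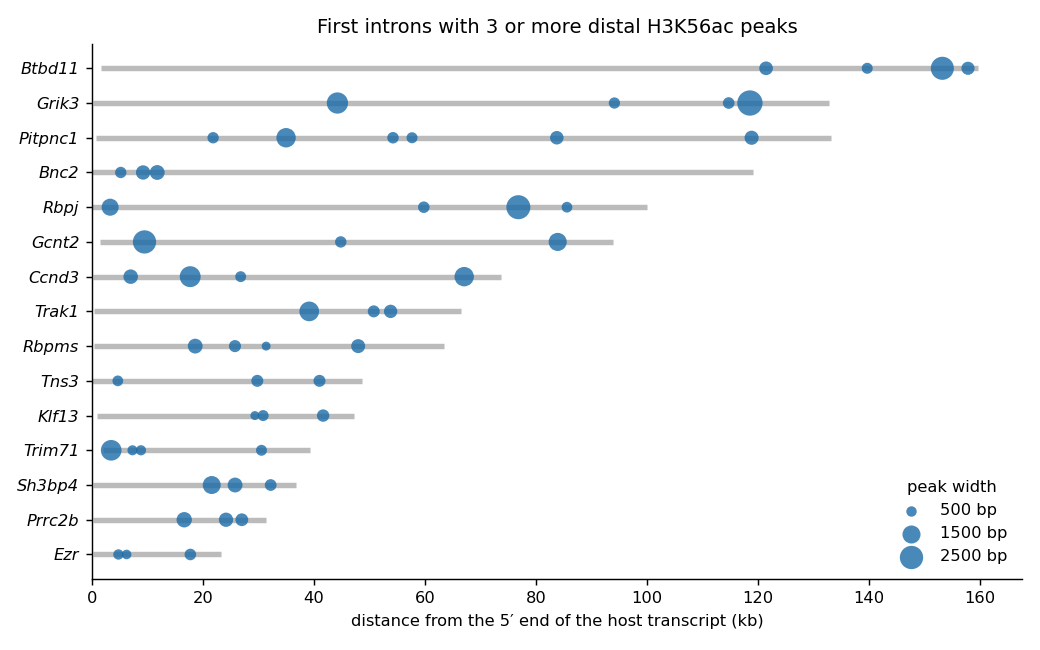
Position of members in the 15 first introns with 3 or more of them, without *Gm20388*. The horizontal axis is the distance from the 5′ end of the host transcript in kb, grey bars are intron 1, and points are peak midpoints with an area that grows with the width of the peak. Peaks of *Bnc2* sat near the 5′ end of a long intron, those of *Btbd11* near the 3′ end, and those of *Pitpnc1* along the intron.

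The median intron 1 of the 293 host genes was 32490 bp, against 11556 bp for the 8733 protein-coding genes that had first-intron sequence open to a member but no member. Longer introns offered more room, and the share of such genes with a member was 0.128% for introns under 5 kb, 1.90% at 5 to 20 kb, 6.09% at 20 to 50 kb and 8.27% above 50 kb.

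Promoter peaks were not used to choose the members. Of the 293 host genes, 183 (62.5%, 56.8 to 67.8) had a peak with its midpoint within 1 kb of at least 1 of their TSS. Among genes with neither a first- nor a later-intron distal peak this share was 35.0% (34.0 to 36.0), a difference of 27.5 percentage points (21.7 to 32.9). By intron length, hosts were set against all eligible genes without a member, hosts of later-intron peaks included. The shares were 63.5% against 38.5% at 5 to 20 kb, 70.8% against 36.6% at 20 to 50 kb and 50.5% against 19.4% above 50 kb, with intervals that did not overlap. Genes with later-intron but no first-intron distal peaks of the chosen widths had a promoter peak in 54.8% of cases (217 of 396). These were not limited to eligible genes, as only 273 eligible genes held a later-intron peak. Some of the 396 thus had no first-intron sequence open to a member, and the eligible ones were not compared alone. Hosts of first-intron peaks exceeded the 396 genes by 7.66 percentage points (0.208 to 14.9). This last difference was small for its error, and its interval held 0 under 5 of the alternatives, with 5.81 (-4.31 to 15.7) for peaks over 10 kb from every TSS. It was 13.2 (5.97 to 20.2) where promoter peaks were those reaching within 1 kb of a TSS with any base. At the start of the longest transcript itself, 142 of 288 hosts (49.3%) had a peak. This share was not computed for other genes, and it cannot be set against the shares above, which used any TSS of a gene.

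**Figure D3:**
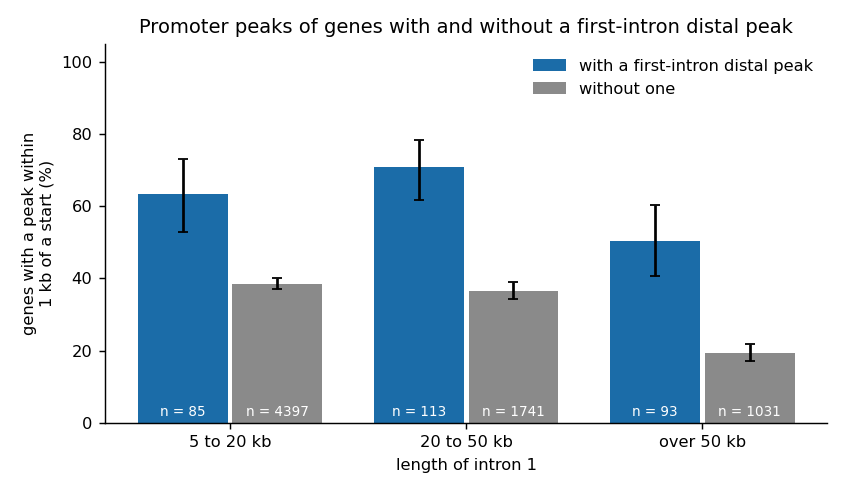
Share of genes with the midpoint of an H3K56ac peak within 1 kb of a TSS in percent (vertical axis), by length of intron 1, for genes with and without a first-intron distal peak. Error bars are Wilson 95% intervals and n is the number of genes. Genes with a first-intron peak stood higher in all 3 classes, by the widest margin at 20 to 50 kb (70.8% against 36.6%). Introns under 5 kb, with 2 host genes, are not drawn.

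First-intron peaks had other peaks close by. Midpoint to midpoint, the nearest peak of any class lay a median of 10667 bp away, against 19425 bp for later-intron peaks. A neighbour within 10 kb was found for 182 members (48.8%, 43.8 to 53.9) and 37.5% of later-intron peaks, a difference of 11.2 percentage points (4.65 to 17.7). Within 50 kb the shares were 83.4% and 71.2% (difference 12.2, 6.61 to 17.5). Among peaks over 10 kb from every TSS the difference within 10 kb was 1.51 percentage points (-6.23 to 9.57). The nearest peak was a promoter peak of the host for 136 members (36.5%), another member of the same intron for 100 (26.8%), a promoter peak of another gene for 47 (12.6%) and a peak 1 to 3 kb from a TSS for 44 (11.8%).

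In base composition the members lay nearer to other distal peaks than to promoter peaks. In the central 400 bp the mean GC content was 48.9% ± 5.23 (SD, n = 373 peaks) for members and 47.9% ± 5.72 (SD, n = 514) for later-intron peaks, a difference of 1.07 percentage points (0.347 to 1.80). It was 0.294 (-0.350 to 0.937) in a window of 1000 bp. Members minus intergenic peaks gave -0.755 percentage points (-1.37 to -0.140). Promoter peaks had a mean GC content of 56.4%, and members minus promoter peaks gave -7.45 percentage points. The ratio of observed to expected CpG, which is high in CpG islands, averaged 0.274 in members, 0.262 in later-intron, 0.342 in intergenic and 0.627 in promoter peaks. Members differed from later-intron peaks by 0.0114 (-0.0101 to 0.0329), and the 2 other differences were called. A ratio above 0.6 together with a GC content above 50% was found in 7 members (1.88%), 2.14% of later-intron, 8.64% of intergenic and 46.5% of promoter peaks. Members minus intergenic peaks gave -6.76 percentage points (-8.58 to -4.41). Repeats covered 16.2% of a member on average, against 17.2% of a later-intron peak (difference -1.01 percentage points, -3.08 to 1.06) and 3.23 percentage points less than of an intergenic peak.

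**Figure D4:**
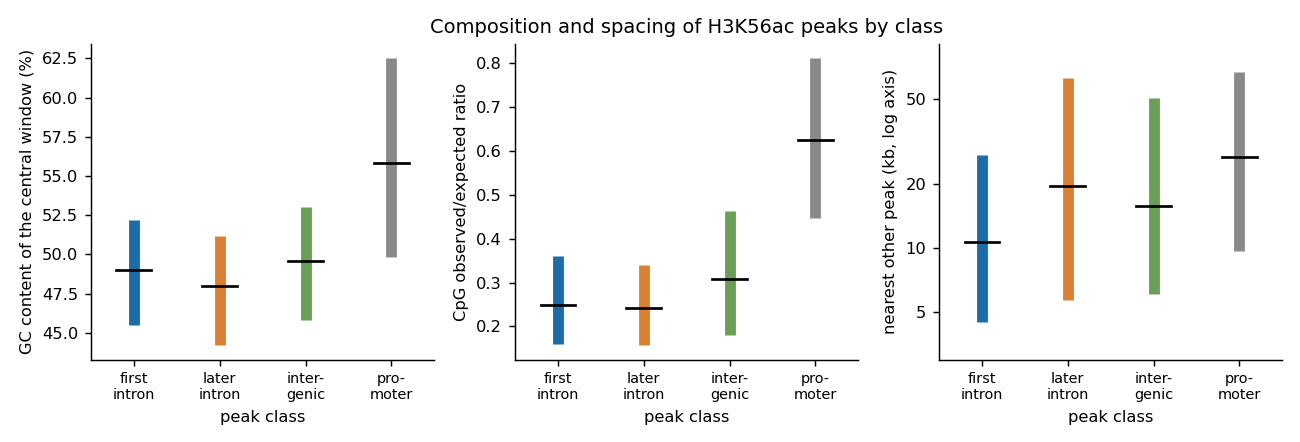
GC content in percent and CpG observed/expected ratio of the central 400 bp, and distance to the nearest other peak in kb on a log axis, for first-intron, later-intron, intergenic and promoter peaks. Coloured bars run from the lower to the upper quartile and black lines are medians. First- and later-intron peaks had similar CpG ratios (medians 0.248 and 0.242), promoter peaks stood at 0.625, and first-intron peaks had the shortest median distance to another peak, 10667 bp.

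Short strings of 15 transcription factors were counted on both strands of the central 400 bp. The OCT4-SOX2 string shares 4 letters with the octamer and 4 with the SOX string ACAATGG, so that these can overlap, while a match to any of them is a description and not a bound site. The site of ESRRB and related nuclear receptors, AAGGTCA, was the most frequent, in 41 members (11.0%, 8.21 to 14.6), followed by AP-1 in 36 (9.65%, 7.05 to 13.1) and the MYC/MAX E-box CACGTG in 30 (8.04%). The RUNX string TGTGGTT was found in 28 and the TEAD string ACATTCC in 27. The OCT4-SOX2 string was rare, with 3 members (0.804%, 0.274 to 2.34), as was the octamer with 5 (1.34%). The OCT4-SOX2 string stood in 0.973% of later-intron peaks, 1.28% of intergenic peaks and 1.08% of windows of first-intron sequence outside peaks. For the octamer these shares were 2.92%, 2.16% and 3.05%. No member held the octamer together with the SOX string. None of the 15 strings was found in 187 members, and 11 held 3 or more.

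For most strings no difference between first- and later-intron peaks was called, but the counts were small and do not show equal rates. Of 22 measures compared between the 2 classes, 4 had an interval without 0, namely the neighbours within 10 and 50 kb, GC content and 1 of the 15 strings. That string was the GC box GGGGCGGG of SP and KLF factors, in 12 members (3.22%) and in 0.973% of later-intron peaks (difference 2.24 percentage points, 0.369 to 4.63). It was not called without *Gm20388* (1.80, interval from just below 0 to 4.12), in a window of 200 bp (1.22, -0.119 to 3.10) or in 1 of 1000 bp (1.13, -2.08 to 4.63). For AP-1 the difference was 1.48 percentage points (-2.26 to 5.48) and for the octamer -1.58 (-3.57 to 0.519).

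Promoter peaks differed from members in both directions. Members more often held the AP-1 string (by 5.11 percentage points), the ESRRB string (5.25), the SOX string (3.01) and the TEAD string (3.01). They less often held strings typical of CpG-rich promoters, namely those of ETS factors (CCGGAAGT, -3.71), of NRF1 (GCGCNTGCG, -6.49) and the GC box (-11.4). Against 477075 windows of the same length that tiled the eligible first-intron sequence outside peaks, 6 strings were more frequent in members. These were AP-1 (6.68% of tiles, difference 2.98 percentage points, 0.376 to 6.40), ESRRB (7.58%, 3.41, 0.626 to 6.99) and the E-box (4.24%, 3.81, 1.45 to 7.01). The others were the GC box (0.980%, 2.24, 0.869 to 4.56), ETS (0.235%, 1.37, 0.504 to 3.23) and YY1 (AAGATGGCG, 0.265%, 0.539, 0.00874 to 2.07). ETS rested on 6 members and YY1 on 3, with a lower limit close to 0. The 15 strings were compared without correction for their number. The octamer stood in 3.05% of tiles (difference -1.71, -2.48 to 0.0523). Tiles had a mean GC content of 42.5%, against 48.9% in members, and the part of GC content in these differences was not tested.

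**Figure D5:**
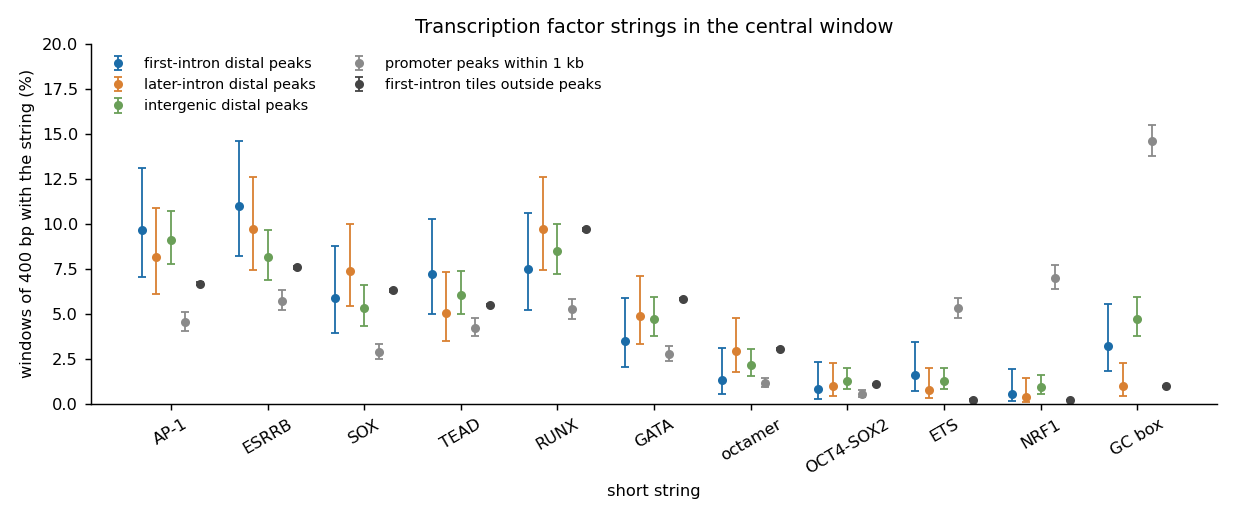
Share of 400 bp windows with a short string in percent (vertical axis) for 11 of the 15 strings, in first-intron, later-intron, intergenic and promoter peaks and in first-intron tiles outside peaks. Points are shares and bars Wilson 95% intervals. First-intron peaks held the AP-1 string in 9.65% of windows against 4.54% of promoter peaks, and the GC box in 3.22% against 14.6%.

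Genes of pathways that act in mESCs were then searched for members. Over all 9026 protein-coding genes with open first-intron sequence, 293 or 3.25% held a member, and each list is read beside this share and the length of its introns. Of 10 eligible pluripotency genes, with a median intron 1 of 7066 bp, 3 held a member. In *Esrrb*, the orphan nuclear receptor, it lay deep in an intron of 108607 bp, 103942 bp behind the 5′ end and 5058 bp from a downstream TSS (chr12:86464575-86465543). In *Fgf4*, a growth factor secreted by mESCs, it lay at 9819 bp (chr7:144856519-144857852). The nearest *Fgf4* TSS was 4200 bp away, and a TSS of this gene lay downstream of the peak. In *Jarid2*, a subunit of Polycomb complex PRC2, the member lay at 19521 bp (chr13:44750456-44751128). *Esrrb* and *Fgf4* had no peak with its midpoint within 1 kb of a TSS, whereas *Jarid2* had.

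Of 6 eligible LIF signalling genes (median intron 23484.5 bp) 1 held a member, the receptor *Lifr*. This peak was 1836 bp wide and 25278 bp behind the 5′ end (chr15:7114974-7116809). Among 14 genes of Nodal and BMP signalling (median intron 25123.5 bp) 3 held a member. The type I receptor *Acvr1b* had a peak at 8686 bp (chr15:101182400-101183105) and the type II receptor *Acvr2b* at 3707 bp (chr9:119405962-119406339), both in genes with a promoter peak. *Ski*, a corepressor of SMAD proteins, had 2, at 49194 and 59516 bp, and no promoter peak (chr4:155172320-155174475 and chr4:155162690-155163462). The 15 eligible genes of the FGF signalling list, which holds receptors and their downstream genes while the ligand *Fgf4* was counted among the pluripotency genes, and the 12 of the Wnt signalling list held no member. Their median introns were 31235 and 25655.5 bp, and lists of this size are too short to set a count of 0 apart from the 3.25% over all eligible genes or the 6.09% at 20 to 50 kb.

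Of 33 eligible chromatin regulators 6 held a member (18.2%), of which the 4 with the widest peaks were *Tet2*, which oxidizes methylated cytosine (1116 bp), *Dnmt1*, the maintenance DNA methyltransferase (942 bp), *Kdm5b*, a demethylase of histone H3 (864 bp), and *Jarid2*. Of 32 genes of actin and cell adhesion 8 held a member (25.0%), of which the widest peaks were in the actinin gene *Actn1* (1153 bp) and the laminin gene *Lamc1* (1024 bp). The median eligible introns of both lists, 18632 and 32071 bp, were longer than the 11976.5 bp of all eligible genes. Over all eligible genes the share was 1.90% at 5 to 20 kb, the class of the first median, and 6.09% at 20 to 50 kb, that of the second. None was found in 12 eligible fibroblast, 10 muscle, 8 neural and mesoderm and 2 ribosomal protein genes. Promoter peaks were present in 20 of 30 pluripotency genes, 6 of 30 muscle genes and 0 of 25 fibroblast genes, the last being markers of the feeder cells. They were also present in 2 of 38 neural and mesoderm genes and 22 of 26 ribosomal protein genes. These counts covered all listed genes, many of which were not eligible, as in the ribosomal list with 2 eligible genes of 26. The share of 36.3% over all eligible genes is thus that of an unlike set of genes. The lists were chosen with earlier results of these data known, so these counts are a description and no test of cell identity.

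Elements with a known activity were few among the members. Of 1310 functional elements that RefSeq lists on these chromosomes, 7 members (1.88%) overlapped 1, compared with 4 of 514 later-intron peaks (0.778%). All 7 were VISTA enhancers, which are tested in transgenic mouse embryos and not in mESCs. The peak in *Rbpms* (chr8:33903765-33904439) overlapped an element recorded as active in the heart, the *Ccnd3* peak (chr17:47521744-47523758) 1 active in somite, midbrain and limb, and the *Tspan14* peak (chr14:40955642-40957486) 1 active in hindbrain, midbrain, limb and cranial ganglia. The others were in *Cbx7*, *Kirrel*, *Mvb12b* and *Tex14*.

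*Utrn* encodes utrophin, a relative of dystrophin at the membrane of muscle fibres. The study examined an enhancer behind its promoter in muscle tissue and muscle cells. By ChIP-seq in muscle stem cells, it reports more H3K56ac at this enhancer after loss of *Sirt6*. No member lay in *Utrn*. H3K56ac at this enhancer was measured there by PCR with the primers GTAGGGGTGTTTCGCTGAGA on the plus strand and GCATTTGGGAGGTGGAGATA on the minus strand. Matched to the reference, they enclose 174 bp at chr10:12857742-12857915. This region is in intron 1 of the transcript that starts at 12861735, 3906 bp away, but in intron 2 of the longest *Utrn* transcript, whose intron 1 is chr10:12861736-12868754. A peak here would thus have counted as a later-intron peak. The nearest peak in the mESC set, chr10:12852706-12852890, was 4851 bp from the primer region and, at 185 bp, below the width range. Other peaks lay deeper in *Utrn*. Intron 51 of the longest transcript held later-intron peaks of 573 bp (chr10:12573034-12573606) and 1586 bp (chr10:12609185-12610770). A promoter peak of 1586 bp (chr10:12614030-12615615) and a peak of 1335 bp at 1 to 3 kb from a TSS (chr10:12547155-12548489) also lay within the gene. The primer region is not the whole enhancer: the paper describes an AP-1 site in the enhancer and aimed guide RNAs at sequence outside the primer region. No AP-1 string lay between the primers and 2 lay within 500 bp of them. The one on the promoter side is shown with its surroundings, which hold a target sequence of these guide RNAs (chr10:12858117-12858243).
Utrn: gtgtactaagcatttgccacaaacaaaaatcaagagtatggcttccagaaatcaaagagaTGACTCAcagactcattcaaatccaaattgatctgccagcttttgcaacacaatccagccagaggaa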

How the data were processed

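Chromatin of V6.5 mESCs was immunoprecipitated for H3K56ac in 2 Scramble and 2 Sirt6KD libraries, with 1 input library each. The authors trimmed reads, aligned them to mm10 with bowtie keeping uniquely placed reads, which can leave repeats without coverage, removed duplicates, called peaks with MACS2, left out blacklisted regions and merged overlapping peaks. The deposited peak list gave start and end positions, and its score column was 0 throughout. Read depth was not part of it, so depth could not be weighed.

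Midpoints were classed with GENCODE M21 on GRCm38, and coordinates are printed counted from 1. A member with several hosts (9) was given to the shortest intron. Shares had Wilson intervals, differences of shares Newcombe intervals, differences of means normal intervals and densities exact Poisson intervals, all at 95%, and no p-value was computed. Of the members, 16 overlapped an exon outside their midpoint. Strings were searched in 400 bp on both strands.

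Members, gene lists and strings were chosen with earlier results of these data known. Named were *Utrn*, members in signalling and pluripotency genes, the 5 widest, the extremes in distance, introns with 3 or more members, and members with the OCT4-SOX2 string. Sequences came from GRCm38 (RefSeq), and the scripts were tested on simulated data with Python 3.11.15, numpy 2.4.6 and scipy 1.17.1. Single members of the actin and adhesion list are in part not reported here.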

Additional observations from a re-analysis of the deposited data

How the results depend on the processing

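Each of 12 other settings was applied alone: no width limit, the whole peak in the intron, a distance over 10 kb, starts of all annotated genes, transcripts tagged basic, 1 peak per intron, peaks 3 to 50 kb from a start, windows of 200 and 1000 bp, neighbours within 50 kb, promoters touched by any base of a peak, and, chosen after seeing the data, leaving out *Gm20388*. No called difference changed sign. Of 76 values for the compared results, 62 kept their call or stayed within their limits.

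The number of members fell from 373 to 193 over 10 kb, and density moved from 1.92 to 2.46 per Mb without width limits and 1.45 over 10 kb. The difference in host genes with a promoter peak lost its call for whole peaks (6.98 percentage points), over 10 kb (5.81), with all annotated starts (6.40), with basic transcripts (7.32) and at 3 to 50 kb (7.62), and was 13.2 where any base of a peak near a start counted. The neighbour difference lost it over 10 kb (1.51), the GC difference in 1000 bp (0.294), and the repeat difference gained it over 10 kb (-3.40). The number of strings called between first and later introns was 1, and 3 without width limits, 0 in 200 bp and 0 without *Gm20388*. In 1000 bp it was again 1, but the GC box was no longer called (1.13) and GATA was (-4.94). No paired analysis was possible because peak positions of all libraries stand in 1 list without a replicate column. For the same reason no replicate could be left out, and the depth behind a peak is unknown.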
